A study of Mus musculus with 10 samples.

Results

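The 6 genes described here make, use or move lactate and were followed across 3 skeletal muscles of the mouse. They were chosen by name, as the subunits of lactate dehydrogenase (Ldha and Ldhb), the lactate transporters of muscle (Slc16a1 and Slc16a3) and the membrane proteins that accompany those transporters (Bsg and Emb). All 6 were among the 16112 genes in the files.

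RNA of the extensor digitorum longus (EDL), psoas and soleus of mice with the genotype label wild type was sequenced, and EDL and psoas have 3 libraries each and soleus has 4. The strain was labelled B6C3Fe a/a-Ttnmdm/J in all of them, the stock that segregates the mdm deletion of titin, and the age was 42, 54 and 44 days in EDL 1 to 3, 42, 54 and 44 days in psoas 1 to 3, and 42, 44, 32 and 44 days in soleus 1 to 4. The labels held 7 animal codes for the 10 libraries, and 3 codes had 2 muscles each. Replicates 1 of each muscle were male, as were EDL 2 and psoas 2, the sex of soleus 3 was not given, and the other 4 libraries were female. EDL and psoas are known as fast muscles, in which glycolysis fuels brief contractions, and the soleus as a slow muscle that works for long periods on oxidative metabolism.

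Total counts ranged from 12737971 to 50431713 per library, so that 3 counts, the upper limit that a count of 0 allows, corresponded to between 0.0595 and 0.236 CPM (counts scaled by the library total), a limit that covers counting error only. Reads of 4 libraries (EDL 1 and 2, psoas 1 and 2) had been quality-trimmed, no soleus library was, and the sequencing run of each library was not listed, so trimming and the slow muscle cannot be told apart in full. All 5 skeletal muscle markers (Acta1, Ckm, Des, Mb and Tnnc2) were counted in every library. In normalized CPM (CPM after TMM scaling) they summed to 16228.3, 18416.5 and 30391.1 in EDL 1 to 3. The sums were 31520.4 to 41885.3 in psoas and 30841 to 32172.2 in soleus. Leukocyte markers summed to 89.8, 108 and 40.8 in EDL 1 to 3, so the EDL libraries differed in composition. The 8 slow fiber markers were all called higher in soleus than in EDL and in psoas, and of the 8 fast fiber markers 4 and 5 were called lower. The means of all 8 fast fiber markers were lower in soleus than in EDL and in psoas. Between psoas and EDL 0 of these 16 markers were called in edgeR (7 had an unadjusted p under 0.05), 3 in DESeq2 and 2 in limma. Of the other marker lists, endothelium had 1 of 8 markers called lower in psoas than in EDL. The skeletal muscle list had 2 called higher in soleus than in EDL, and 1 called higher and 1 called lower than in psoas. The 29 erythroid, adipocyte, leukocyte, Schwann cell and satellite cell markers had 0 calls in edgeR. Of these 29, between 9 and 15 had an unadjusted p under 0.05 in a comparison, DESeq2 called 2 or 3 and limma 0. The tendon list is given beside Emb, which moved with it.

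Lactate dehydrogenase interconverts pyruvate and lactate, together with NADH and NAD+. The active enzyme is a tetramer of M subunits, encoded by Ldha and typical of fast muscle, and H subunits, encoded by Ldhb and typical of heart and oxidative muscle. Lactate crosses the plasma membrane with a proton through monocarboxylate transporters. Slc16a1 encodes MCT1, a transporter of high affinity found in oxidative fibers and heart, and Slc16a3 encodes MCT4, a transporter of lower affinity found in glycolytic fibers. Both need a partner of the immunoglobulin superfamily to reach the membrane, which is basigin (Bsg) for most tissues, while embigin (Emb) is a related partner.

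The bases just before the start sites of 4 of these genes are shown because hypoxia-inducible and E-box factors are known to act on genes of glycolysis and lactate export, and because Ldha and Slc16a3 were both low in soleus while Ldhb and Slc16a1 were both high there. RefSeq start sites (GRCm38.p6) were matched for 5 of the 6 genes, Bsg being the exception. Capitals mark ACGTG, a form of the core of the hypoxia response element, on either strand. The E-box CACGTG holds these letters on both strands. The form GCGTG was not searched and is not marked in the stretches shown. Ldha has 2 start sites in RefSeq, and the first of them is shown.
Ldha, chr7:46845554-46845803, plus strand: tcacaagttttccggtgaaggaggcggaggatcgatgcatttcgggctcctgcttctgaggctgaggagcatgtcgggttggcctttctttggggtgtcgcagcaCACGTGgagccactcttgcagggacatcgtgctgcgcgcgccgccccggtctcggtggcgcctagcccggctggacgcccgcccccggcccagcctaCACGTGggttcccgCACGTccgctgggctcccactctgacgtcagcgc
Slc16a1, chr3:104638414-104638663, plus strand: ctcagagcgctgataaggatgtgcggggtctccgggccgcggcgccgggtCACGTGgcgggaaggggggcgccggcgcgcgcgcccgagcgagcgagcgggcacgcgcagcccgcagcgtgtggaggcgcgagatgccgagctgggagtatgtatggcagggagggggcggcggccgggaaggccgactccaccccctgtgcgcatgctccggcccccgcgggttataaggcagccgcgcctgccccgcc
Slc16a3, chr11:120949037-120949066, plus strand: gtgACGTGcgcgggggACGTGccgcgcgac
Ldhb, chr6:142507958-142508207, minus strand: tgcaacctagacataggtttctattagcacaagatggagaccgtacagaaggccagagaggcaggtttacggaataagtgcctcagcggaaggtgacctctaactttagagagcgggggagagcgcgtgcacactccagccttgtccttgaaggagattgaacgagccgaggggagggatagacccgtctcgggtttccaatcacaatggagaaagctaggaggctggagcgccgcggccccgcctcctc

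The stretches of Ldha, Slc16a1 and Ldhb are the 250 bases upstream of the start, and that of Slc16a3 is the last 30 of its 250, which lie in an exon of another Slc16a3 transcript in GENCODE M21. Of 32536 different upstream windows of 250 bases in the table, 16.7% held ACGTG on either strand, 6.04% held CACGTG, and 1.13% held TNAAGGTCA, a site of estrogen-related receptors. The Ldha window held ACGTG 5 times when both strands are counted, 4 of them within 2 E-boxes that began 145 and 48 bases before the start. Among all windows, 0.433% held 2 or more E-boxes. The Slc16a1 window held 1 E-box, which began 200 bases before the start, and the Slc16a3 window held ACGTG 2 times outside an E-box, beginning 27 and 14 bases before the start. Among all windows, 6.84% held ACGTG 2 or more times over both strands, where 1 E-box counts 2 times. The shares of all windows were not matched for base composition. The windows of Ldhb, Emb and the second Ldha start held neither ACGTG nor CACGTG, and none of the 6 windows held TNAAGGTCA. These matches describe the letters only, since no binding was measured.

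The 2 genes of the dehydrogenase were compared first. Expression is given as normalized CPM, the count scaled by the library total after TMM scaling, which compares 1 gene between libraries. Differences were tested with edgeR's quasi-likelihood test, with p-values adjusted over all genes after Benjamini and Hochberg. A gene was called where its adjusted p was below 0.01 and its levels differed more than 2-fold.

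Ldhb, the gene of the H subunit (chr6:142490249-142507957, minus strand, in GENCODE M21 on GRCm38, as for all genes here), had 67.7, 69.3 and 91.9 normalized CPM in EDL 1 to 3. In psoas 1 to 3 it had 54.1, 87.9 and 198. In soleus 1 to 4 it had 836, 751, 992 and 869. The lowest soleus library was thus far above the highest library of either fast muscle, and the psoas libraries were spread around those of EDL. Mean levels were 76.3 ± 13.6 (SD, n = 3) in EDL, 113 ± 75.3 (SD, n = 3) in psoas and 862 ± 100 (SD, n = 4) in soleus. Ldhb was higher in soleus than in EDL by 3.50 on the log2 scale (SE 0.40, 11.3-fold, adjusted p = 0.00031), and this call held in all 23 alternative settings. Against psoas it was higher by 2.93 (SE 0.39, 7.61-fold, adjusted p = 0.00069), which held in 22 of 23. This value was 3.60 without psoas 3 and 2.11 in the untrimmed libraries alone (adjusted p = 0.00013 and 0.022). With trimming as a covariate the log2 fold change against EDL was 2.83 (adjusted p = 0.0011). A covariate of 3 levels stood in for the sequencing run (trimmed, untrimmed at 44 days of age, other untrimmed). With it the log2 fold change was 2.74 against EDL and 2.34 against psoas (adjusted p = 0.0030 and 0.0033). No soleus library was trimmed, and the other untrimmed level holds only soleus 1 and 3. With either covariate, soleus is therefore set against the fast muscles mainly through EDL 3 and psoas 3. Loss of a soleus call under these covariates cannot tell trimming or run from muscle. Psoas and EDL did not pass (log2 fold change 0.57, adjusted p = 0.34), and the sign rested on psoas 3, without which the log2 fold change was -0.10.

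Ldha, which encodes the M subunit (chr7:46841475-46855627, plus strand), went the other way. It had 339, 308 and 521 normalized CPM in EDL 1 to 3. It had 802, 690 and 696 in psoas 1 to 3. It had 237, 189, 145 and 196 in soleus 1 to 4. The 3 muscles did not overlap, with psoas highest and soleus lowest, at means of 390 ± 115 (SD, n = 3) in EDL, 729 ± 62.8 (SD, n = 3) in psoas and 192 ± 37.8 (SD, n = 4) in soleus. Only the difference between soleus and psoas passed. Ldha was 3.80-fold lower in soleus there (-1.93 on the log2 scale, SE 0.23, adjusted p = 0.00035). This call held in 21 of 23 alternatives. The difference between soleus and EDL missed the threshold narrowly (log2 fold change -1.02, SE 0.23, adjusted p = 0.011), and 4 of the 23 alternatives called it, among them DESeq2 and limma with the animal as a random effect (-1.06, adjusted p = 0.0050). The difference between psoas and EDL did not pass either (0.90, SE 0.24, adjusted p = 0.037). It passed without EDL 3 (1.17, adjusted p = 0.0068), the EDL library with the highest Ldha. Among the trimmed libraries psoas stood 1.20 above EDL on the log2 scale of mean CPM (2 against 2), and between the untrimmed libraries 0.42 (1 against 1). In EDL and psoas the trimmed libraries were all male, and the untrimmed ones were female and of another age. Trimming, sex and age therefore cannot be told apart in these values. EDL 1 and 2 also had lower sums of the skeletal muscle markers than EDL 3, and EDL 3 a lower sum than psoas. The soleus sums lay above that of EDL 3, while Ldha was lowest in soleus. The part of tissue composition in the Ldha difference between psoas and EDL was not tested.

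Reads of the dehydrogenase genes can be shared with processed pseudogenes, and the handling of such reads is not given in the sources used here. Of the 75-base windows of the longest Ldhb transcript, 16.7% occurred exactly in another gene and 61.3% with up to 2 mismatches, all of them in Gm5514. For Ldha these shares were 5.23% and 40.1%, in 17 pseudogenes. Gm5514 was itself counted, at 1.15 ± 0.179 normalized CPM in EDL (SD, n = 3), 1.35 ± 0.596 in psoas (SD, n = 3) and 11.3 ± 2.72 in soleus (SD, n = 4), and its count was at most 1.96% of that of Ldhb in any library. It was higher in soleus by 3.28 and 3.12 on the log2 scale against EDL and psoas (adjusted p = 0.00016 and 0.00026, edgeR). The 3 Ldha copies counted (Ldha-ps2, Gm11814 and Gm5987) reached at most 0.936% of the Ldha count each. Levels of both genes, and shares made from them, are therefore uncertain by the reads lost to copies or gained from them.

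**Figure D1:**
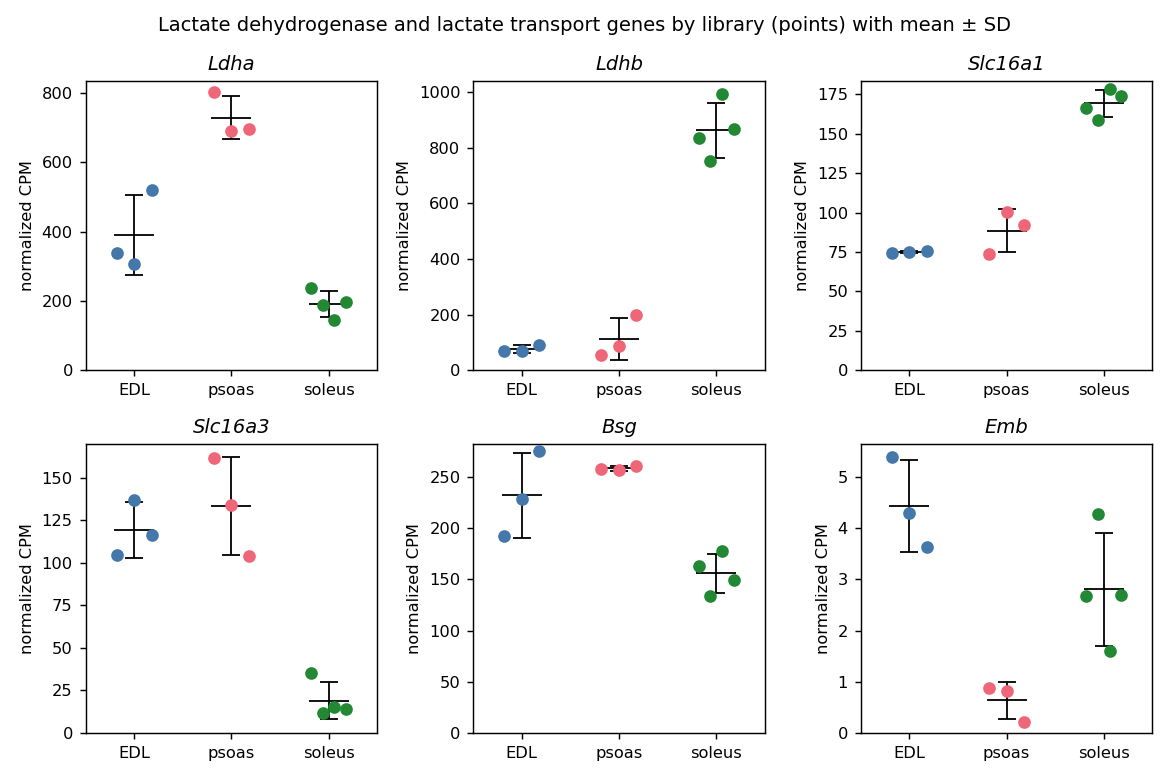
Normalized CPM of the 6 genes (y axis, from 0, a separate scale for each gene) in the libraries of EDL, psoas and soleus (points), with the mean and SD of each muscle (bars). Soleus libraries sit at 751 to 992 for Ldhb and at 11.7 to 35.0 for Slc16a3, both apart from EDL and psoas, while Emb is lowest in psoas at 0.212 to 0.871.

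The transporter genes showed a contrast of the same form, with the high-affinity transporter higher and the low-affinity transporter lower in soleus than in EDL. Slc16a3, the gene of MCT4 (chr11:120948480-120960868, plus strand), had 105, 137 and 116 normalized CPM in EDL 1 to 3. In psoas 1 to 3 it had 162, 134 and 104. In soleus 1 to 4 it had 35.0, 11.7, 14.99 and 13.8. Soleus 1 stood above the other soleus libraries yet remained under every library of the fast muscles. Means were 119 ± 16.3 (SD, n = 3) in EDL, 133 ± 29.0 (SD, n = 3) in psoas and 18.9 ± 10.9 (SD, n = 4) in soleus. In soleus Slc16a3 was 6.34-fold lower than in EDL (log2 fold change -2.66, SE 0.34, adjusted p = 0.00058) and 7.09-fold lower than in psoas (-2.83, SE 0.35, adjusted p = 0.00042). Each call was lost only in a fit of the untrimmed libraries alone (adjusted p = 0.045 and 0.060), in which EDL and psoas have 1 library each. Psoas and EDL overlapped (0.16, adjusted p = 0.81), and the sign turned without psoas 1, to -0.03.

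Slc16a1, the gene of MCT1 (chr3:104638668-104658462, plus strand), had 74.1, 75.1 and 75.7 normalized CPM in EDL 1 to 3, the narrowest spread of any of the 6 genes in EDL. It had 73.9, 100 and 91.9 in psoas 1 to 3. It had 167, 159, 178 and 174 in soleus 1 to 4. Every soleus library was above every library of the fast muscles, while EDL lay within the range of psoas. Mean levels were 74.96 ± 0.776 (SD, n = 3), 88.7 ± 13.4 (SD, n = 3) and 169 ± 8.48 (SD, n = 4) in EDL, psoas and soleus. Slc16a1 was 2.26-fold higher in soleus than in EDL (log2 fold change 1.18, SE 0.15, adjusted p = 0.00058), and the call was lost in 3 of 23 alternatives. These were the stand-in for the sequencing run as a covariate, the test against a fold change of 2 and the fit of the untrimmed libraries. The log2 fold change lay between 1.09 and 1.27 over the alternatives. The difference from psoas had an adjusted p of 0.0020 but a fold change of 1.91, under the limit of 2, and was called only without psoas 2 (log2 fold change 1.04, adjusted p = 0.0049). Psoas and EDL did not pass (0.24, adjusted p = 0.34). No 75-base window of Slc16a1, Slc16a3 or Bsg matched another gene with up to 2 mismatches.

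The partner proteins differed from each other in both level and pattern. Bsg, the gene of basigin (chr10:79704491-79711969, plus strand), had 193, 229 and 276 normalized CPM in EDL 1 to 3. It had 258, 257 and 261 in psoas 1 to 3. It had 163, 133, 178 and 150 in soleus 1 to 4. The soleus libraries lay under all others, at a mean of 156 ± 19.0 (SD, n = 4) against 232 ± 41.6 (SD, n = 3) in EDL and 259 ± 2.34 (SD, n = 3) in psoas. No comparison of Bsg passed here or in any of the 23 alternatives. The log2 fold changes of soleus were -0.57 against EDL (SE 0.17, adjusted p = 0.037) and -0.73 against psoas (SE 0.17, adjusted p = 0.015).

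Emb, the gene of embigin (chr13:117208536-117274415, plus strand), was the least abundant of the 6. It had 5.39, 4.30 and 3.62 normalized CPM in EDL 1 to 3. It had 0.871, 0.824 and 0.212 in psoas 1 to 3, the last of these from 3 counts. It had 2.67, 4.28, 1.59 and 2.69 in soleus 1 to 4. Psoas was thus apart from both other muscles, and soleus and EDL overlapped. Means were 4.44 ± 0.893 (SD, n = 3) in EDL, 0.636 ± 0.367 (SD, n = 3) in psoas and 2.81 ± 1.10 (SD, n = 4) in soleus. Emb was 6.62-fold lower in psoas than in EDL (log2 fold change -2.73, SE 0.45, adjusted p = 0.0060) and 4.25-fold higher in soleus than in psoas (2.09, SE 0.44, adjusted p = 0.0083). The first call was lost in 11 of 23 alternatives, including the fits without EDL 1, EDL 2, psoas 1, psoas 2, psoas 3, soleus 1 or soleus 4, with an adjusted p between 0.011 and 0.025 and a log2 fold change between -3.09 and -2.38 in these fits. The second was lost in 15 of 23, including the fits without any 1 library except soleus 3, with an adjusted p between 0.010 and 0.029 and a log2 fold change between 1.74 and 2.40. It was also lost in limma with the animal as a random effect (2.17, adjusted p = 0.012), which takes account of the 2 animal codes that psoas and soleus share. The log2 fold change was 2.75 with trimming as a covariate, 3.01 with the stand-in for the sequencing run and 3.69 in the untrimmed libraries (adjusted p = 0.0086, 0.0052 and 0.070). The log2 ratio of mean CPM in psoas over EDL was -2.52 among the trimmed libraries (2 against 2) and -4.09 between the untrimmed libraries (1 against 1). Trimming coincided with sex in these libraries. Soleus and EDL did not pass (-0.64, adjusted p = 0.24), and the sign turned, to 0.21, with the stand-in for the sequencing run as a covariate.

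Tendon markers moved with Emb. All 6 tendon markers (Tnmd, Scx, Mkx, Fmod, Thbs4 and Kera) were called lower in psoas than in EDL, and 4 of the 6 were called higher in soleus than in psoas. The means of all 6 tendon markers were higher in soleus than in psoas. Their summed level was 639 to 741 normalized CPM in EDL, 30.3 to 80.2 in psoas and 80.9 to 415 in soleus. The 7 leukocyte markers summed to 40.8 to 108 in EDL, 16.5 to 39.5 in psoas and 36.5 to 54.1 in soleus, and the 8 endothelial markers to 154 to 274, 137 to 146 and 168 to 199. The 4 satellite cell markers summed to 19.8 to 28.5, 6.23 to 8.26 and 5.42 to 26, of which Chodl made up most (mean 22.6 in EDL and 4.92 in psoas). Pax7, Myf5 and Calcr had means of 0.548, 0.589 and 0.382 in EDL and 0.506, 0.830 and 0.855 in psoas, and the median log2 fold change of the satellite cell list was 0.22, against -4.04 for tendon, -1.24 for leukocytes and -0.67 for endothelium. No marker of these 4 lists was at 0 in any library. Their part in the difference of Emb was not tested, and in whole muscle, fewer cells of a type and less RNA per cell cannot be told apart. Of the windows of the longest Emb transcript, 21.5% matched Gm17509 exactly, a gene that overlaps Emb on the opposite strand and was not among the counted genes. The strand setting of the counting is not given in the sources used here, so reads of the 2 genes cannot be told apart.

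**Figure D2:**
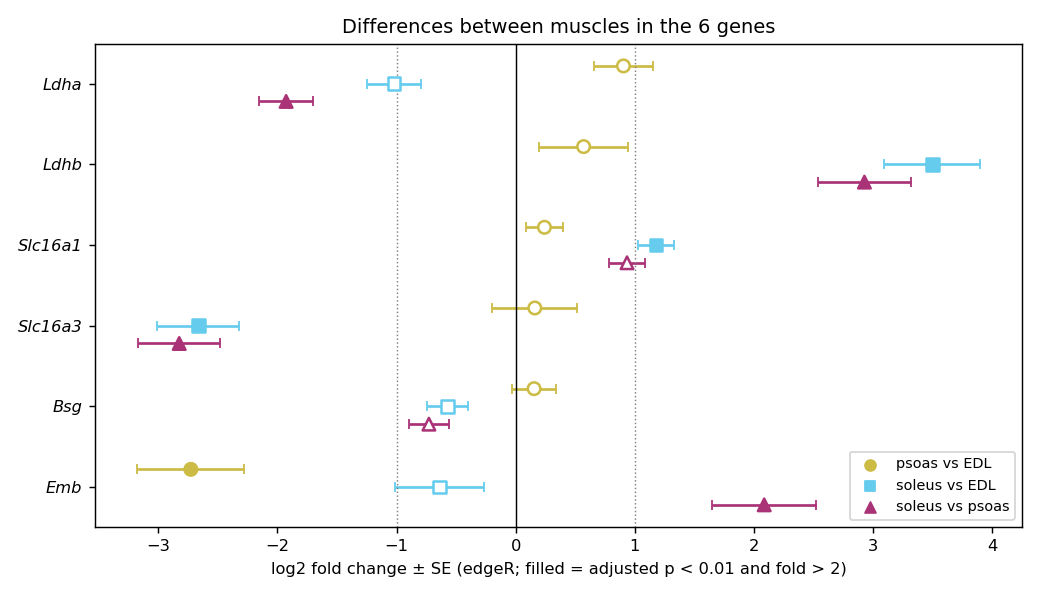
Log2 fold changes (x axis) of the 6 genes (y axis) in the 3 comparisons, with SE as error bars; filled symbols were called, and dotted lines mark a fold change of 2. Ldhb lies at 3.50 and 2.93 in the soleus comparisons and Slc16a3 at -2.66 and -2.83, whereas in psoas against EDL only Emb, at -2.73, is filled.

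Counted over the 6 genes, 1 was called in psoas against EDL, 3 in soleus against EDL and 4 in soleus against psoas. Over all genes tested, 2.11%, 5.77% and 5.69% were called in these comparisons. The call between psoas and EDL was Emb, lower in psoas, where 1.57% of all genes were called lower and 0.54% higher. Soleus had 2 genes called higher than in EDL (Ldhb and Slc16a1) and 1 lower (Slc16a3), against 3.59% and 2.18% of all genes. Relative to psoas, Ldhb and Emb were higher and Ldha and Slc16a3 lower, where 2.99% of all genes were called higher and 2.71% lower. Groups that did not overlap in normalized CPM were more common than calls. They were found for 2 of the 6 genes in psoas against EDL (29.6% of all genes), for 5 in soleus against EDL (29.5%) and for 6 in soleus against psoas (25.8%). The comparisons share libraries and are not independent of each other.

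Within each library, the genes were set against each other per length. Levels are given here as FPKM, fragments scaled by summed exon length and by library size. In EDL the order was Bsg (127 ± 22.7) and Ldha (116 ± 34.1), which overlapped, then Ldhb (48.1 ± 8.47), Slc16a3 (22.2 ± 3.18), Slc16a1 (16.8 ± 0.227) and Emb (0.636 ± 0.126), SD over n = 3. In psoas it was Ldha (221 ± 20.9), Bsg (143 ± 0.927), Ldhb (72.0 ± 46.7), Slc16a3 (25.2 ± 5.76) and Slc16a1 (20.1 ± 2.99), which overlapped, and Emb (0.0928 ± 0.0542), SD over n = 3. In soleus the order turned to Ldhb (541 ± 73.2), Bsg (84.8 ± 12.0) and Ldha (56.9 ± 11.01), which overlapped, Slc16a1 (37.7 ± 2.52), Slc16a3 (3.50 ± 2.03) and Emb (0.398 ± 0.149), SD over n = 4. The H subunit gene thus went from the third to the first place, and MCT1 and MCT4 changed places. Neighbors not named as overlapping had separate ranges over libraries. The order also depends on the lengths taken. Summed exons are 3310 bases for Ldha and 1814 for Bsg, and the longest transcripts 1815 and 1526. With the longest transcripts the Ldha mean lies above that of Bsg in EDL and soleus too, and Slc16a3 and Slc16a1 no longer overlap in psoas.

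Shares within each gene pair do not depend on the scaling of libraries. The Ldhb share of the Ldha and Ldhb FPKM was 29.6%, 32.2% and 27.1% in EDL 1 to 3. It was 12.5%, 21.2% and 37.5% in psoas 1 to 3. It was 88.1%, 89.3%, 93.5% and 90.4% in soleus 1 to 4. The fast muscles thus carried mostly Ldha and the soleus mostly Ldhb, at means of 29.6% ± 2.53 (SD, n = 3) in EDL, 23.7% ± 12.7 (SD, n = 3) in psoas and 90.3% ± 2.31 (SD, n = 4) in soleus. Psoas 3 was above every EDL library and psoas 1 and 2 were below, so that the order of the fast muscles in this share was not resolved. The share depends on the length taken for Ldha, whose summed exons (3310 bases) are longer than its longest transcript (1815 bases). With the longest transcripts it was 21.8% in EDL and 86.1% in soleus.

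The Slc16a1 share of the Slc16a1 and Slc16a3 FPKM was 46.0%, 39.7% and 43.9% in EDL 1 to 3. It was 35.4%, 47.3% and 51.5% in psoas 1 to 3. It was 85.1%, 94.2%, 93.5% and 93.8% in soleus 1 to 4. EDL and psoas overlapped at means of 43.2% ± 3.19 (SD, n = 3) and 44.8% ± 8.33 (SD, n = 3), near equal parts of both transporters, while soleus had mostly Slc16a1 at 91.7% ± 4.38 (SD, n = 4). Soleus 1 was the lowest of the soleus libraries in both shares.

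The sums of the pairs behaved differently from each other. Ldha and Ldhb together had 165 ± 42.5 FPKM in EDL (SD, n = 3), 293 ± 34.3 in psoas (SD, n = 3) and 598 ± 68.1 in soleus (SD, n = 4), and the ranges (137 to 213, 267 to 332 and 515 to 682) did not overlap. The skeletal muscle markers also summed lower in EDL than in psoas, and their part in the difference between these muscles was not tested. The size of the differences in the pair sum depends on the gene lengths used. With the longest transcripts the sums were 270 ± 72.3, 490 ± 38.0 and 755 ± 79.5, and in normalized CPM, without a length, 466 ± 129, 843 ± 58.9 and 1054 ± 82.8, again without overlap. Slc16a1 and Slc16a3 together had 39.0 ± 3.36, 45.2 ± 4.77 and 41.2 ± 3.29 FPKM, with overlapping ranges in all 3 muscles, as also with the longest transcripts (44.0 ± 4.08, 51.0 ± 5.92 and 42.0 ± 3.60) and in normalized CPM. The soleus therefore differed in the shares of the transporter genes, with no difference in the sum that the spread over libraries resolved. Bsg FPKM per summed transporter FPKM was 3.26 ± 0.561 in EDL (SD, n = 3), 3.18 ± 0.340 in psoas (SD, n = 3) and 2.05 ± 0.155 in soleus (SD, n = 4), and each soleus library lay below each library of the other muscles.

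**Figure D3:**
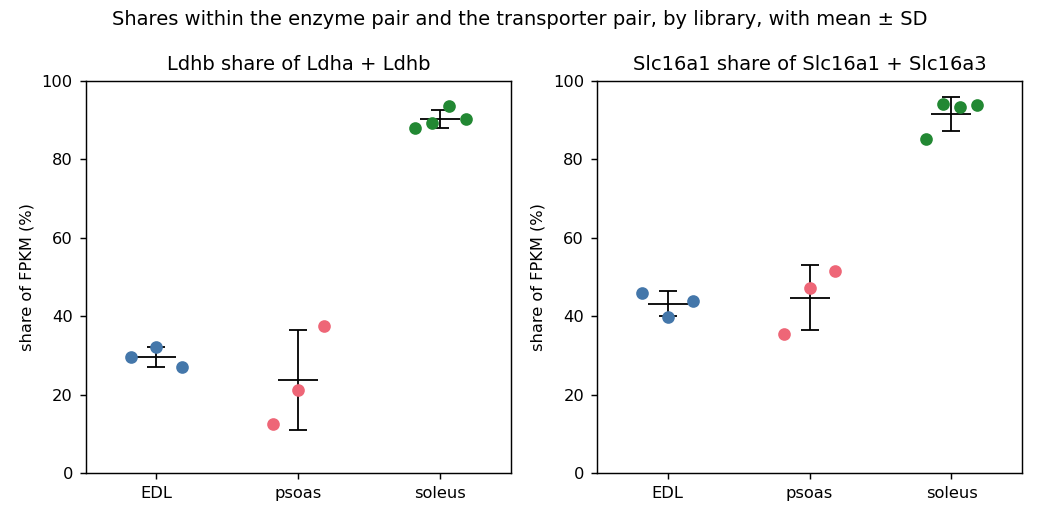
Ldhb share of the Ldha and Ldhb FPKM (left) and Slc16a1 share of the Slc16a1 and Slc16a3 FPKM (right), in percent on axes from 0 to 100, per library (points) with the mean and SD of each muscle (bars). Soleus libraries lie between 88.1% and 93.5% on the left and between 85.1% and 94.2% on the right, with no overlap with EDL or psoas.

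There were 3 animal codes that had a soleus library and a library of a fast muscle, and setting them against each other removes differences between animals from the comparison. The Ldhb difference, soleus minus the other muscle on the log2 scale of normalized CPM, was 3.95 for soleus 1 and psoas 1, 3.03 for soleus 2 and EDL 3, and 2.13 for soleus 4 and psoas 3. For Slc16a3 these differences were -2.20, -3.30 and -2.91. The 2 genes therefore differed in the same direction in each of the 3 pairs, as did Slc16a1 (1.17, 1.07 and 0.92), Ldha (-1.76, -1.47 and -1.83) and Bsg (-0.66, -1.05 and -0.80). Emb differed by 1.53 and 3.26 in the pairs with psoas and by 0.23 in the pair with EDL. Psoas 1 had been trimmed and soleus 1 had not, so this pair also differs in processing. The libraries of the other pairs were all untrimmed. With 3 pairs no test of the sign could reach a two-sided p under 0.05, and none was made.

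**Figure D4:**
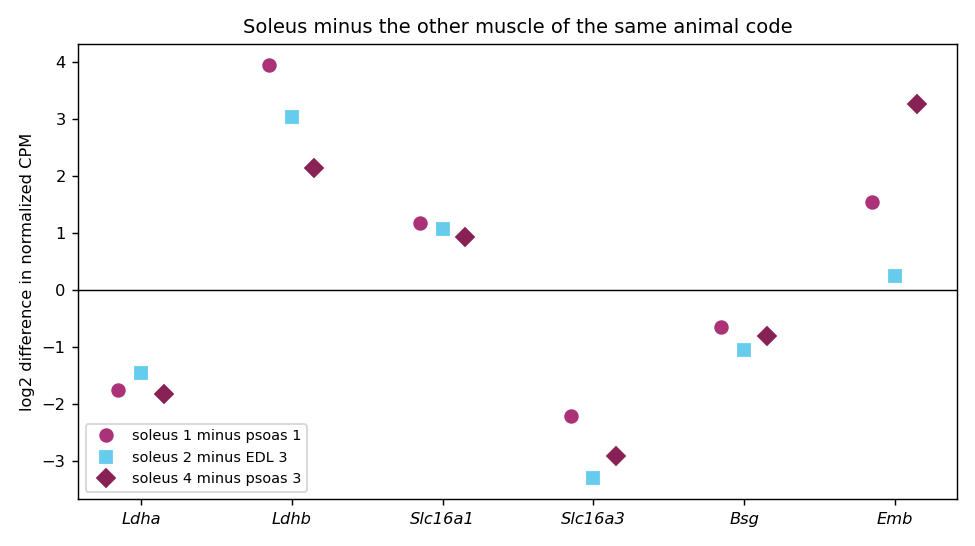
Log2 difference in normalized CPM (y axis), soleus minus the other muscle of the same animal code, for the 6 genes (x axis) and 3 pairs of libraries (symbols). Ldhb and Slc16a1 lie above 0 and Ldha, Slc16a3 and Bsg below 0 in all 3 pairs, at 2.13 to 3.95 for Ldhb.

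Lactate is made from the pyruvate that glycolysis delivers, so the genes around it were read from 5 lists. Of the 17 glycolytic enzyme genes 16 were counted. In soleus against psoas, 7 of the 16 were called lower and 1 higher, with a median log2 fold change of -0.91 where that of all genes was 0.02. Furthest from 0 by fold change were Aldoa, muscle aldolase (-1.87, SE 0.32, adjusted p = 0.0028), and Eno3, muscle enolase (-1.70, SE 0.30, adjusted p = 0.0031). Aldoa was lost as a call without psoas 2, soleus 2 or soleus 4 (adjusted p 0.010 to 0.014), and Eno3 without these or psoas 3 (0.011 to 0.014). With the stand-in for the sequencing run as a covariate their log2 fold changes were -2.55 and -2.43. Pkm, pyruvate kinase (-1.54, SE 0.21), and Tpi1, triose phosphate isomerase (-1.54, SE 0.22), had smaller fold changes and lower adjusted p (0.00068 and 0.00098), and the Tpi1 call held in 21 of 23 alternatives, against 17 for Aldoa and 16 for Eno3. The gene called higher was Pfkp, the platelet form of phosphofructokinase (1.03, SE 0.22, adjusted p = 0.0097), at low levels of 3.28 ± 0.0622 normalized CPM in psoas (SD, n = 3) and 6.73 ± 0.814 in soleus (SD, n = 4). Its call was lost in 18 of 23 alternatives, including every fit that left out 1 library other than EDL 3 (adjusted p 0.010 to 0.039).

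Against EDL, soleus had 1 of the 16 glycolytic genes called, Tpi1 (triose phosphate isomerase), which was lower (-1.01 on the log2 scale, SE 0.22, adjusted p = 0.0094). This call was lost in 19 of 23 alternatives, including each fit that left out 1 library (adjusted p 0.011 to 0.035). The median of the list was -0.58, against -0.05 over all genes. Aldoa and Eno3 did not pass there (-1.27 and -1.17, adjusted p = 0.019 for both). Between psoas and EDL, Pfkp was lower in psoas (-1.45, SE 0.23, adjusted p = 0.0052), which was lost without EDL 1, EDL 2, psoas 1, psoas 2, psoas 3 or soleus 4 (adjusted p 0.011 to 0.025), and the list median was 0.46 against 0.01. Ldha thus had the sign of the median glycolytic gene in each of the 3 comparisons (0.90, -1.02 and -1.93). The skeletal muscle markers had a median log2 fold change of 0.74 in psoas against EDL. Their part in the glycolytic values of that comparison was not tested.

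Pyruvate that does not become lactate enters the mitochondrion through its carrier and the pyruvate dehydrogenase complex, which pyruvate dehydrogenase kinases switch off. All 14 genes of this list were counted. Soleus had Pdk4 and Pdk1, both kinases, higher than EDL by 3.19 (SE 0.54, adjusted p = 0.0030) and 2.05 (SE 0.27, adjusted p = 0.00066) on the log2 scale. Pdk4 had 81.6 ± 59.8 normalized CPM in EDL (SD, n = 3), 580 ± 17.4 in psoas (SD, n = 3) and 743 ± 290 in soleus (SD, n = 4), so that psoas was also above EDL without a call (2.83, adjusted p = 0.012). The EDL libraries ranged from 25.3 in EDL 3 to 144 in EDL 2, and the log2 fold change of soleus against EDL was 3.89 without EDL 2, 3.95 with trimming as a covariate and 4.83 in the untrimmed libraries (adjusted p = 0.0030, 0.0087 and 0.024). For psoas against EDL it lay between 2.40 and 4.51 over the alternatives. The Pdk4 call in soleus was lost without EDL 1 (adjusted p = 0.021) and with the stand-in for the sequencing run as a covariate. The difference between psoas and EDL was called without EDL 3 or soleus 2 (adjusted p 0.0065 to 0.0099), and also with trimming or this stand-in as a covariate. Pdk1 was also higher in soleus than in psoas (1.34, SE 0.26, adjusted p = 0.0061), a call lost without psoas 1, psoas 2 or any 1 soleus library (adjusted p 0.012 to 0.026). This call was also lost with trimming or the stand-in for the sequencing run as a covariate. Dlat, the acetyltransferase subunit of the complex, was higher in psoas than in EDL (1.12, SE 0.19, adjusted p = 0.0069), which was lost in 8 of the 10 fits that left out 1 library, those without EDL 1, EDL 2, any psoas library, soleus 1, soleus 2 or soleus 4 (adjusted p 0.011 to 0.038). List medians were 0.53, 0.68 and 0.06 in psoas against EDL, soleus against EDL and soleus against psoas.

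**Figure D5:**
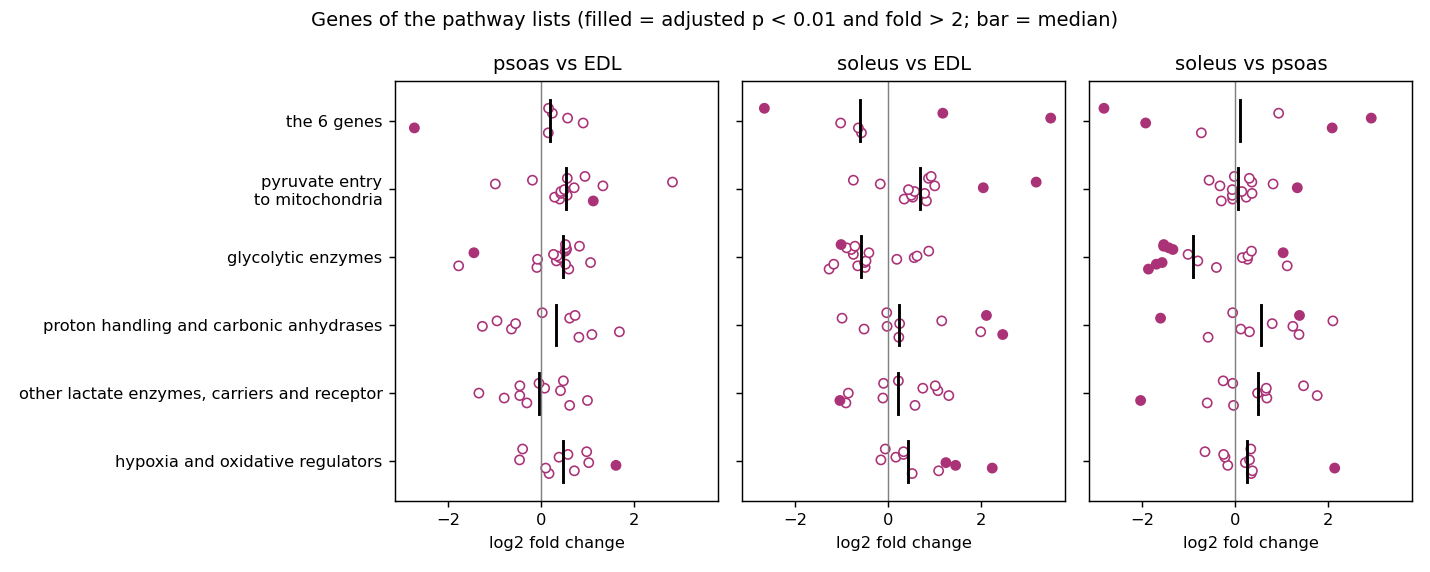
Log2 fold changes (x axis) of the counted genes of the 5 lists and of the 6 lactate genes (rows) in the 3 comparisons (panels); each circle is a gene, filled circles passed both thresholds, and vertical bars are medians. In soleus against psoas 7 glycolytic genes are filled on the left, with the list median at -0.91.

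Of the 20 other lactate genes (further dehydrogenases, monocarboxylate carriers, sodium-coupled carriers and the lactate receptor), 11 were counted. Hcar1, the receptor, and Ldhc, the testis dehydrogenase, were among the 9 that were not. The only calls were of Slc16a10, a carrier of aromatic amino acids, which had 19.4 ± 4.71 normalized CPM in EDL (SD, n = 3), 38.8 ± 6.15 in psoas (SD, n = 3) and 9.49 ± 1.92 in soleus (SD, n = 4). It was lower in soleus than in psoas (-2.04, SE 0.21, adjusted p = 0.00018) and than in EDL (-1.04, SE 0.21, adjusted p = 0.0075). The latter was lost in 14 of 23 alternatives, including the fits without EDL 2, EDL 3, psoas 2, psoas 3, soleus 1, soleus 2 or soleus 4 (adjusted p 0.011 to 0.041). Slc16a7, which encodes MCT2, did not pass in any comparison (log2 fold change 0.08, 0.75 and 0.67 in the order above). List medians were -0.05, 0.22 and 0.48.

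Protons leave the fiber with lactate or by bicarbonate transport, which carbonic anhydrases assist, and 10 of 11 such genes were counted. Car2, cytosolic carbonic anhydrase, was higher in soleus than in EDL (2.47, SE 0.31, adjusted p = 0.00051), as was Slc4a7, a sodium bicarbonate cotransporter (2.12, SE 0.25, adjusted p = 0.00040). With the stand-in for the sequencing run as a covariate the Car2 call was lost. Car2 had 2.65 ± 0.407 normalized CPM in EDL (SD, n = 3), 5.61 ± 0.787 in psoas (SD, n = 3) and 14.6 ± 5.42 in soleus (SD, n = 4). Soleus exceeded psoas in Slc4a7 (1.38, SE 0.25, adjusted p = 0.0036), lost without psoas 2, psoas 3, soleus 2 or soleus 4 (adjusted p 0.010 to 0.014). This call was also lost with trimming or the stand-in for the sequencing run as a covariate. The difference of Car2 between soleus and psoas was called only in 4 alternatives, 1 of them the fit without soleus 1 (1.37 and adjusted p = 0.010 over all libraries, adjusted p = 0.0012 without soleus 1). Slc4a4, another sodium bicarbonate cotransporter, was lower in soleus than in psoas (-1.61, SE 0.21, adjusted p = 0.00058), a call lost with the stand-in for the sequencing run. Against EDL it fell short of the fold limit (-0.99, adjusted p = 0.0084) except without EDL 3 or psoas 1 (-1.06 to -1.04, adjusted p 0.0030 to 0.0084) and under 5 other alternatives. List medians were 0.32, 0.24 and 0.55.

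All 10 hypoxia and oxidative regulators were counted. Egln3, a prolyl hydroxylase that marks hypoxia-inducible factors for degradation, was higher in soleus than in EDL (2.24, SE 0.40, adjusted p = 0.0038) and than in psoas (2.14, SE 0.40, adjusted p = 0.0047). It had 36.9 ± 7.26 normalized CPM in soleus (SD, n = 4), 7.85 ± 1.72 in EDL (SD, n = 3) and 8.52 ± 5.30 in psoas (SD, n = 3). Against EDL, the Egln3 call was lost without EDL 1, EDL 2 or soleus 2 (adjusted p 0.011 to 0.026). Against psoas it was lost without psoas 2, soleus 2 or soleus 4 (0.012 to 0.022), and its log2 fold change was 1.42 in the untrimmed libraries. Both calls of Egln3 were also lost with trimming or the stand-in for the sequencing run as a covariate. In these fits soleus is set against the fast muscles mainly through EDL 3 and psoas 3. Epas1, which encodes HIF-2 alpha, was lowest in EDL, with psoas above EDL by 1.61 (SE 0.27, adjusted p = 0.0063) and soleus above EDL by 1.45 (SE 0.26, adjusted p = 0.0036). These were lost without EDL 1, EDL 2, any 1 psoas library or soleus 4 (adjusted p 0.012 to 0.032) and without EDL 1, EDL 2, soleus 1, soleus 2 or soleus 4 (0.010 to 0.023). The Epas1 call of soleus against EDL was also lost with trimming or the stand-in for the sequencing run as a covariate. Esrra, which encodes an estrogen-related receptor of oxidative metabolism, was the third gene called in soleus against EDL (1.24, SE 0.21, adjusted p = 0.0028). Hif1a and Ppargc1a did not pass in any comparison, at log2 fold changes from -0.46 to 0.31 and from -0.25 to 0.58. List medians were 0.48, 0.42 and 0.26.

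For each of the 6 genes, the 3 genes most like it were taken by Pearson's r of log2 normalized CPM over the 10 libraries, among 12664 genes with a mean of at least 1 CPM. These r values are descriptions, since the 10 points fall into 3 muscles and were chosen as the highest of many. Ldhb was most like Pla2g12a, a secreted phospholipase A2 (r = 0.990), Wdyhv1 (0.987) and Mb, myoglobin (0.986). Slc16a1 was most like Zdhhc23, a palmitoyltransferase (0.990), Mb (0.984) and Acadm, the medium-chain acyl-CoA dehydrogenase (0.980). Myoglobin thus stood in the lists of both genes, at mean levels of 1537, 1879 and 6354 normalized CPM in EDL, psoas and soleus. Ldha was most like Tirap, an adaptor of Toll-like receptors (0.993), Ppp1r14c, an inhibitor of protein phosphatase 1 (0.985), and Atp1b2, a beta subunit of the sodium pump (0.981). The genes closest to Slc16a3 were 2310065F04Rik (0.986), Eya4, a transcriptional coactivator (0.982), and Cacna2d4, an auxiliary calcium channel subunit (0.981). Bsg was closest to St3gal6, a sialyltransferase (0.984), Tnnt3, fast skeletal troponin T (0.980), and Popdc2 (0.977). Emb was closest to Dok1, a docking protein of tyrosine kinase signaling (0.978), Pla2g4a, cytosolic phospholipase A2 (0.976), and Rftn2 (0.973), and Dok1 had its lowest mean in psoas too, at 4.31, 0.863 and 2.92 normalized CPM in EDL, psoas and soleus.

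The adipocyte markers also varied with the muscles that separated Slc16a1 and Ldhb. They summed to 8.73 to 25.8 normalized CPM in EDL, 9.56 to 49.2 in psoas and 32.0 to 145 in soleus, with 0 of 6 called in any comparison in edgeR or limma. DESeq2 called 2 of them in each comparison of soleus, where 6 (against EDL) and 5 (against psoas) had an unadjusted p under 0.05 in edgeR, and Lep was at 0 in psoas 3. Their part in the levels of Slc16a1 and Ldhb was not tested.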

How the data were processed

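RNA of wild-type mouse EDL, psoas and soleus was sequenced as paired reads from stranded total RNA libraries. Per the submitters' processing notes and the study's methods, low-quality libraries were trimmed with Trimmomatic 0.32, reads were aligned with TopHat2 2.1.1 to GRCm38.p4 (mm10), and reads per gene were counted with GenomicFeatures and GenomicAlignments. The authors deposited raw counts per Ensembl gene, 1 file per library, without normalization, after removing genes with fewer than 3 libraries of at least 10 reads, and all 16112 genes met this filter. The treatment of reads with several alignments and the strand setting of the counting are not given in the sources used here.

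The 3 comparisons were made in 1 edgeR 4.0.16 quasi-likelihood fit over the 10 libraries in R 4.3.3, with TMM scaling, no covariate and Benjamini-Hochberg adjustment over all genes. The SE was taken from the log2 fold change and its F statistic. FPKM values were computed with DESeq2 1.42.0 from the summed exon lengths of GENCODE M21, which gave a symbol for 16032 genes. Further steps used Python 3.11.15 with pandas 2.3.3 and numpy 2.4.6. The scripts were tested on simulated data. Libraries are taken as replicates of a muscle. The methods of the study name fewer mice than the labels hold animal codes, so p-values measure the spread between these libraries.

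The members, gene lists and tests were chosen with earlier results of these data known. Named genes are the 6 members, the up to 2 called genes that rose and the up to 2 that fell most in each list and comparison, the 3 genes most like each member, and the markers set beside a result. Pkm, Hcar1, Ldhc, Slc16a7, Hif1a, Ppargc1a, Esrra and the pseudogenes are named in addition, after their values were seen. Upstream windows were taken from RefSeq (GRCm38.p6). Alternatives, with their effect in the closing section, were DESeq2's Wald test, limma 3.58.1 (voom) with the animal as a random effect, and DESeq2 size factors. Upper-quartile scaling, a filter of at least 1 CPM in at least 3 libraries and fits of the compared muscles alone were also used. Covariates were trimming, sex and the stand-in for the sequencing run, named run proxy below and built from trimming and age. Further ones were the replicate number as a block, thinned counts and a looser adjusted p of 0.05. The last were a test against a fold change of 2 and each library left out. A fit of the 6 untrimmed libraries, and other lengths and libraries for the FPKM and sums of the members, were added after seeing the data.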

Additional observations from a re-analysis of the deposited data

Results flagged for a closer look

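Of the 27 values screened, 3 stood apart from the other libraries of their group by Dixon's ratio, all of them in soleus 1 and all from the same gene. Chance marks about 1 in 20 groups. The normalized CPM of Slc16a3 was 35.0 in soleus 1 and between 11.7 and 14.99 in the other soleus libraries, with a ratio of 0.859. Its FPKM was 6.51 against 2.11 to 2.84, with a ratio of 0.835. The Slc16a1 share of the transporter pair was 85.1% in soleus 1 and between 93.5% and 94.2% in the others, with a ratio of 0.916. Without soleus 1, Slc16a3 was lower in soleus by a log2 fold change of -3.15 against EDL and -3.31 against psoas. Soleus 1 is 1 of 2 libraries of its animal code, the other being psoas 1, which had the highest Slc16a3 of the psoas libraries at 162 normalized CPM.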

How the results depend on the processing

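The calls of the 6 genes were recomputed under 23 alternatives, and values are given here where a count moved by more than 1.5 times or a share by more than 1 SD. The number of genes called between psoas and EDL was 340. It was 1095 with DESeq2, 153 with these muscles alone, 605 with trimming as a covariate, 757 with the run proxy, 865 with sex, 213 with thinned counts, 1233 at an adjusted p under 0.05, 27 in the test against a fold change of 2, 0 in the untrimmed libraries (1172 genes at an unadjusted p under 0.05 in edgeR), and 61 (without psoas 2) to 963 (without EDL 3) with 1 library left out. Of the 6 genes, 0 were called between psoas and EDL with these muscles alone, with thinned counts, in the test against a fold change of 2 and in the untrimmed libraries, and 0 to 2 with 1 library left out.

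Between soleus and EDL 929 genes were called, and 1520 with DESeq2, 371 with trimming, 251 with the run proxy, 1853 at an adjusted p under 0.05, 185 in the test against a fold change of 2, 48 in the untrimmed libraries (1 of the 6 genes), and 385 (without EDL 1) to 1511 (without EDL 3) with 1 library left out. Between soleus and psoas 917 were called, and 1382 with DESeq2, 566 with trimming, 475 with the run proxy, 1563 at an adjusted p under 0.05, 176 in the test against a fold change of 2 (2 of the 6 genes), 33 in the untrimmed libraries (0 of the 6), and 493 (without psoas 2) to 964 (without EDL 3) with 1 library left out. With upper-quartile scaling the median gene had a log2 fold change of -0.14 in place of -0.05 in soleus against EDL, and the share of higher calls was 53.5% in place of 62.2%. DESeq2 gave 53.9% there, and 39.2% in place of 25.6% in psoas against EDL. With trimming or the run proxy as a covariate, soleus is set against the fast muscles mainly through EDL 3 and psoas 3. These are their only untrimmed libraries. The fit of the untrimmed libraries leaves 1 library each of EDL and psoas, assumed to vary like soleus. The causes of these shifts were not tested, other than the fewer libraries of the last fit.

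By the animal codes, the replicate numbers mark the same animal only in psoas 1 and soleus 1. The methods of the study name fewer mice than there are codes, so libraries with different codes may come from the same mouse. Deviations from the muscle means correlated between equal numbers at 0.26, 0.063 and 0.55 for EDL and psoas, at 0.45, -0.19 and -0.075 for EDL and soleus, and at 0.41, -0.29 and -0.12 for psoas and soleus (12713 genes), so the numbers were not taken as pairs, and not every library correlated best with its own number. With the replicate number as a block, 146, 586 and 539 genes were called in psoas against EDL, soleus against EDL and soleus against psoas, and of the 6 genes only the Emb call between soleus and psoas was lost. In limma with the animal as a random effect that call was lost too, and the Ldha difference between soleus and EDL was called.

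The Ldhb share was 16.7% in EDL, 13.3% in psoas (within 1 SD of 23.7%) and 81.7% in soleus from counts without a correction for length, 21.8%, 17.3% and 86.1% with the longest transcript, and 37.5% in psoas in the untrimmed libraries, which is psoas 3 alone. The Slc16a1 share in EDL was 38.8% from counts and 38.3% with the longest transcript. The sign turned in 5 cases, none of them a call. These were Ldhb between psoas and EDL (-0.10 without psoas 3, range -0.10 to 0.87 with 1 library left out), Slc16a3 there (-0.029 without psoas 1, range -0.029 to 0.31 with 1 library left out, and -0.20 in the untrimmed libraries), Bsg (-0.11 in the untrimmed libraries), and Emb between soleus and EDL (0.21 with the run proxy). At the depth of these libraries Emb in psoas rests on 3 to 33 counts per library, which limits the precision of its fold changes.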
